A study of Mus musculus with 9 samples.

Results

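The Dlk1-Dio3 cluster is an imprinted stretch of mouse chromosome 12 that holds 3 protein genes, several long non-coding RNAs and a large group of microRNA genes. Its members were taken by name and place: Dlk1, Meg3, Rtl1, Rian, Mirg, Dio3 and every microRNA gene between Dlk1 and Dio3 in the RefSeq gene table. Of these 67 candidates, 45 had a probe set that named 1 gene and are described here, 5 named genes and 40 microRNA genes, out of 19935 genes measured. Mirg, Mir410 and Mir433 shared their probe sets with other genes, so no value is given for them, and 19 further microRNA genes were not analysed here. The cluster was selected on the differences between these same groups of arrays, that is, with the low Sap-1 shRNA values of its members known, and the members' own differences are therefore given as descriptions without p-values.

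RNA was measured in NIH 3T3 cells, an established mouse fibroblast line, on 9 Affymetrix Mouse Gene 1.0 ST arrays, 3 per group. The control group stably carried the empty lentiviral vector pLKO.1. The Net shRNA group carried a short hairpin RNA against Net (gene Elk3) and the Sap-1 shRNA group one against Sap-1 (gene Elk4), which belong to the ternary complex factors, partners of serum response factor with an ETS domain. All cells were plated on fibronectin for 2 hours, starved of serum overnight and given bovine serum for 1 hour, at 10% in one label and 20% in another. No array was made before serum, and the response to it cannot be read from these data. The labels call the 3 arrays of a group biological replicates but do not say how many stable lines or hairpins stand behind each group, so the spread may be that within a single line. In bulk RNA, fewer cells that make a transcript and less of it per cell cannot be told apart.

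Levels are RMA values on the log2 scale, where a difference of 1 is a doubling or halving. Array medians ran from 7.47 to 7.54, and the correlation over all probe sets was 0.9981 to 0.9992 within groups and 0.9879 to 0.9947 between them. The targeted gene Elk4 fell by 1.54 with the Sap-1 hairpin (limma adjusted p = 9.2e-10, SE 0.04). Elk3 fell there by 0.12 (limma adjusted p = 0.023, SE 0.04) and Srf by 0.19 (limma adjusted p = 0.0085, SE 0.05). With the Net hairpin its target Elk3 fell by 0.42 (limma adjusted p = 1.1e-05, SE 0.04) and Elk4 fell by 0.44 (limma adjusted p = 2.3e-05, SE 0.04). The 12 fibroblast markers had a median level of 12.84 in control, with Fap at 4.66, while the medians of adipocyte, endothelial, macrophage, epithelial, muscle and pluripotency markers lay between 6.16 and 7.27. In Sap-1 shRNA cells 5 of the 12 fibroblast markers were called lower, among them Pdgfra (-1.74) and Dcn (-0.66). The share was 41.7%, against 13.9% of all genes. The array medians of the list ran from 12.81 to 12.85 in control, 12.77 to 12.83 with the Net hairpin and 12.64 to 12.70 with the Sap-1 hairpin. Markers of other cell types called higher in Sap-1 shRNA cells were the endothelial genes Emcn (0.89) and Cdh5 (0.84) and the adipocyte gene Lpl (0.67). So were the macrophage genes Cd14 (0.21) and Lyz2 (1.81), which has a close copy that makes it uncertain. The muscle genes Des (0.63) and Acta1 (0.42) and the epithelial gene Krt14 (0.48) were called higher too. Called lower were Tek (-0.30) of the endothelial, Cd68 (-0.23) of the macrophage, Pparg (-0.25) of the adipocyte and Tnnt3 (-0.18) of the muscle markers. Called higher and lower in these cells were 2 and 1 of 9 endothelial, 2 and 1 of 9 macrophage, 1 and 1 of 10 adipocyte, 2 and 1 of 9 muscle markers and 1 and 0 of 8 epithelial ones. Of all genes, 15.8% were called higher and 13.9% lower. The array medians of the macrophage list ran from 6.15 to 6.22 in control, 6.55 to 6.84 with the Net hairpin and 6.63 to 6.85 with the Sap-1 hairpin. They moved because Lyz2, at 6.04 in control, passed the middle rank of the list, at 6.84 and 7.85. The median difference over the 9 genes was 0.01 with the Net and -0.02 with the Sap-1 hairpin. The part of these markers in the cluster's values was not tested.

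Imprinted genes are read from only the maternal or only the paternal chromosome. In this cluster the protein genes Dlk1, Rtl1 and Dio3 are read from the paternal chromosome, and Meg3, Rian, Mirg and the microRNAs from the maternal one, under the control of a methylated region between Dlk1 and Meg3. The microRNAs are cut out of long maternal transcripts by Drosha and Dicer, and each mature microRNA finds its targets chiefly through its seed, bases 2 to 8 from the 5′ end. The cluster is best known for its part in growth before birth, in muscle and in brain, and for the loss of Meg3 expression in many reprogrammed stem cell lines.

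The mature sequences shown first belong to the microRNA genes on which the results turn. They are RefSeq sequences of build GRCm38.p6, all from the plus strand of chromosome 12, written 5′ to 3′ with the seed in capitals. Mir380 and Mir377 had the largest differences from control, Mir382, Mir323, Mir300, shown further on with a relative, Mir329 and Mir369 followed, and Mir134 is a microRNA known from dendritic spines of neurons.
miR-380-5p, chr12:109711806-109711827: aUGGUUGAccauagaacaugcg
miR-380-3p, chr12:109711842-109711863: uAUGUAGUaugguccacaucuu
miR-377-3p, chr12:109740553-109740574: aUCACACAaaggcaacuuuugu
miR-382-5p, chr12:109733781-109733802: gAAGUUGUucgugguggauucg
miR-323-3p, chr12:109712558-109712578: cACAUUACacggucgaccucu
miR-329-3p, chr12:109713541-109713562: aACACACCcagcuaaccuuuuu
miR-369-3p, chr12:109743466-109743486: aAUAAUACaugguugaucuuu
miR-134-5p, chr12:109734145-109734166: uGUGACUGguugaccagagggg

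Some members are close relatives in sequence, and these are shown side by side because their probe sets could be reached by each other's RNA. Cross-hybridisation was not tested, and each member's row of values differed from that of every other probe set. The RefSeq table held 76 mature forms of the 40 microRNA genes, with 74 different seeds. Only 2 seeds were shared between members, AUGUAAC by miR-379-3p and miR-411-3p and UGGAUAU by miR-376c-5p and miR-376b-5p. With positions counted from 1 at the 5′ end, miR-411-3p differs from miR-379-3p by U10C and U22C, and miR-376b-5p differs from miR-376c-5p by U19G. The 3p forms of Mir300 and Mir381 differ by G4A, which lies in the seed, and by U21G and C22U.
miR-379-3p, chr12:109709102-109709123: uAUGUAACaugguccacuaacu
miR-411-3p, chr12:109710225-109710246: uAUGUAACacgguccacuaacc
miR-376c-5p, chr12:109722733-109722754: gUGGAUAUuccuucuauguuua
miR-376b-5p, chr12:109723471-109723492: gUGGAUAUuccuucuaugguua
miR-300-3p, chr12:109724363-109724384: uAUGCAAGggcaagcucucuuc
miR-381-3p, chr12:109726870-109726891: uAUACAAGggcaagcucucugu

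The last set holds microRNA genes that stood apart from the rest in the values. Mir341 was the microRNA gene lower in Net shRNA cells with no overlap between groups, Mir666 differed least of the microRNA genes between Sap-1 shRNA and control, and Mir127 lies opposite Rtl1, whose transcript its mature form is known to cut.
miR-341-5p, chr12:109611521-109611541: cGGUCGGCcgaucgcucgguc
miR-666-5p, chr12:109717103-109717124: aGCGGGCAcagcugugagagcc
miR-127-3p, chr12:109592888-109592909: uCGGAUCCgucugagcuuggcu

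In the Sap-1 shRNA cells all 45 members had a mean below that of the control cells. Meg3 and Rian were lower by about 2 on the log2 scale, 24 of the 30 microRNA genes of the far end of the cluster by at least 1, the protein gene Dlk1 by less than 0.5, and Dio3 hardly differed. In the test over all genes 41 of the 45 members were called lower, where 13.9% of the 19935 genes were called lower and 15.8% higher. The control and Sap-1 shRNA arrays did not overlap for 43 members, against 20.2% of all genes lower without overlap. Lower by at least 1 were 27 members, against 0.803% of all genes, and the median difference was -1.28 over the members and -0.02 over all genes. Because the cluster was chosen with this comparison in view, these counts describe it and carry no test. With genes below the median of all genes left out before the adjustment, 19 members remained and 17 of them were called.

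**Figure D1:**
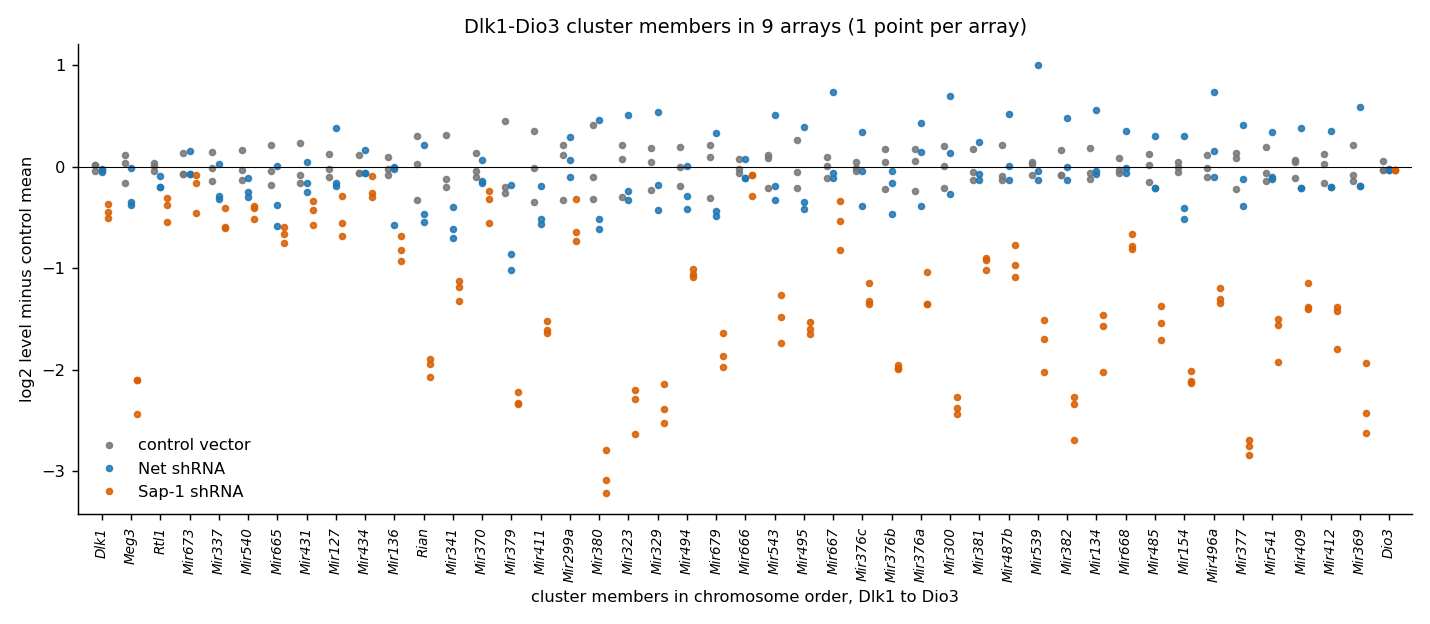
Level of each of the 45 members in each of the 9 arrays, on the log2 scale, minus the mean of the 3 control vector arrays (vertical axis), with members in chromosome order (horizontal axis). The Sap-1 shRNA points lie lowest for nearly every member, from -3.03 on average for Mir380 to -0.03 for Dio3, while the Net shRNA points scatter around the control ones.

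Meg3, the first long non-coding RNA of the maternal chromosome and a known growth restraint, showed the largest difference among the named genes. Its levels were 11.81, 11.53 and 11.73 in the control arrays, 11.68, 11.31 and 11.34 in the Net shRNA arrays and 9.59, 9.59 and 9.25 in the Sap-1 shRNA arrays. The Sap-1 shRNA arrays lay below all the others, and the other groups overlapped. With the Sap-1 hairpin the mean difference from control was -2.22 (SE 0.12), a level at 21.5% of control on the linear scale, and with the Net hairpin it was -0.24 (SE 0.12).

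Rian, the long non-coding RNA downstream of Meg3 that hosts small nucleolar RNAs, followed the same order. The control arrays read 8.23, 7.87 and 8.50, the Net shRNA arrays 8.42, 7.66 and 7.74 and the Sap-1 shRNA arrays 6.26, 6.31 and 6.13. Its Sap-1 shRNA mean fell by 1.96 (SE 0.19), to 25.6% of the control level, and the Net shRNA arrays spanned nearly the whole control range (-0.26, SE 0.19). No level of Mirg, another long transcript, is given, since its probe sets carried several gene symbols.

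The 3 small nucleolar RNA genes of the region that carried a probe set of their own are no members by the rule. DQ267102 averaged 11.75 ± 0.10 in control, 12.22 ± 0.13 with the Net hairpin and 10.20 ± 0.23 with the Sap-1 hairpin (SD, n = 3 arrays each). Its Net shRNA arrays lay above all control arrays and its Sap-1 shRNA arrays below them. DQ267101 (-0.52, SE 0.06) and AF357341 (-0.53, SE 0.08) lay below control without overlap in the Sap-1 shRNA arrays, and their Net shRNA arrays overlapped with control.

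Among the protein genes of the paternal chromosome, Dlk1, which encodes a membrane protein related to the Notch ligands and holds back fat cell formation, read 13.70, 13.76 and 13.76 in control, 13.72, 13.71 and 13.69 in Net shRNA and 13.37, 13.29 and 13.24 in Sap-1 shRNA arrays. The Sap-1 shRNA mean was 73.7% of the control level (-0.44, SE 0.04), and the Net shRNA mean 97.9% (-0.03, SE 0.04). A probe set this bright can approach saturation, which was not tested. Rtl1, a gene derived from a retrotransposon and needed in placenta and muscle, read 7.52, 7.56 and 7.59 in control, 7.47, 7.36 and 7.36 in Net shRNA and 7.25, 7.18 and 7.01 in Sap-1 shRNA arrays. The groups of Rtl1 did not overlap, and the differences from control were -0.16 (SE 0.06) with the Net hairpin, which was not called, and -0.41 (SE 0.06) with the Sap-1 hairpin. Dio3, the deiodinase that inactivates thyroid hormone and marks the far border of the cluster, was listed at 6.36 in 7 of the 9 arrays, at 6.45 in control replicate 3 and at 6.37 in Net shRNA replicate 1. No difference in Dio3 could be measured, and a value repeated over so many arrays says little about its RNA.

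**Figure D2:**
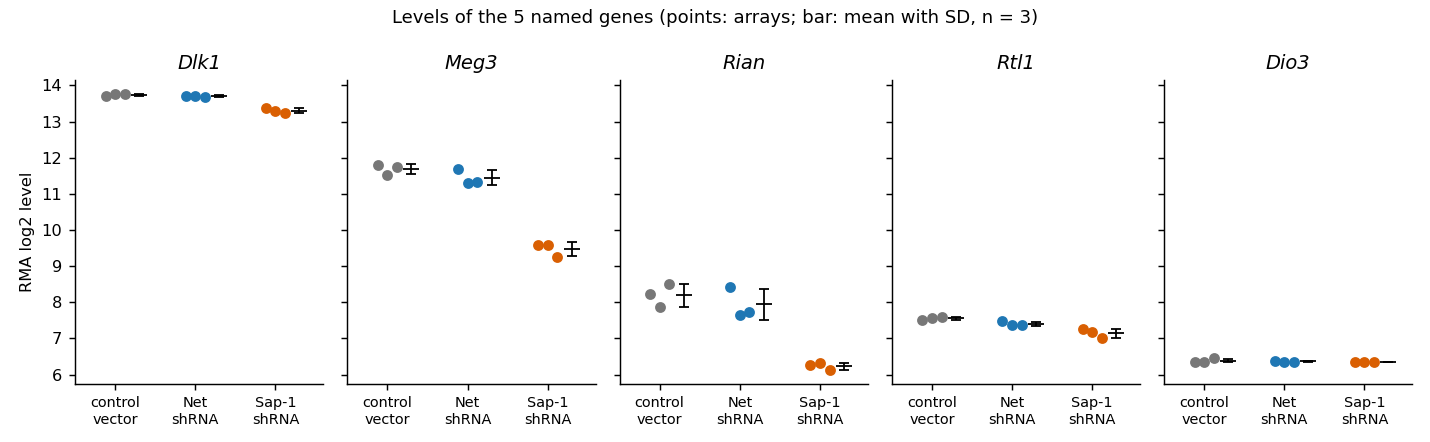
RMA log2 level (vertical axis) of the 5 named genes in the 3 groups, 1 point per array, with the mean and SD of 3 arrays beside the points. In Sap-1 shRNA cells Meg3 and Rian differed from control by -2.22 and -1.96, Dlk1 and Rtl1 by -0.44 and -0.41, and Dio3 stayed at 6.36 to 6.45 throughout.

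The 40 microRNA genes differed widely among themselves in Sap-1 shRNA cells, from -3.03 to -0.14 with a median of -1.30. A probe set named for a microRNA gene can bind its primary transcript, its hairpin or its mature form, the RNA was total RNA from a silica column, and which of these forms was measured was not tested. The arrays were made with random-primed labelling, per the kit named in the labels. The 10 microRNA genes that come before Mir379 had a median of -0.48 (range -1.22 to -0.22) and the 30 from Mir379 onward, the group the field calls the miR-379 to miR-410 cluster, a median of -1.59 (range -3.03 to -0.14). Of the first group 8 were called lower and of the second 29, and 1 against 24 were lower by at least 1. This division was made after the values were seen, and neighbours cut from the same transcript are not independent, so no test is given.

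The microRNA genes before Mir379 include those that lie opposite Rtl1. Mir127 read 7.90, 7.75 and 7.67 in control, 8.16, 7.58 and 7.61 in Net shRNA and 7.49, 7.22 and 7.09 in Sap-1 shRNA arrays, a difference of -0.51 (SE 0.15) for Sap-1 shRNA. The Sap-1 shRNA arrays lay below all others, though by only 0.09 from the nearest. Mir431 (-0.45, SE 0.10) and Mir136 (-0.81, SE 0.13), likewise opposite Rtl1, were lower without overlap, while Mir434 (-0.22, SE 0.08) was not called and lay near the bottom of the scale at 4.65 in control. Mir673 (-0.23, SE 0.10) was not called either. Mir337, Mir540, Mir665 and Mir370 lay at -0.67 to -0.37.

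Mir341 is the exception among these, at -1.22 (SE 0.12). It read 10.29, 9.78 and 9.86 in control, 9.58, 9.36 and 9.28 in Net shRNA and 8.85, 8.79 and 8.65 in Sap-1 shRNA arrays. The 3 groups formed separate steps, with the Net shRNA arrays between the others.

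From Mir379 onward, Mir380 stood furthest from control. Its levels were 9.23, 8.50 and 8.71 in control, 9.27, 8.30 and 8.20 in Net shRNA and 6.02, 5.60 and 5.73 in Sap-1 shRNA arrays. The highest Sap-1 shRNA array was thus 2.18 below the lowest of the other 6, and the mean was 12.2% of the control level (-3.03, SE 0.26). The Mir380 hairpin is shown here with both mature arms in capitals, because a probe set for so short a gene has little sequence to draw on; it spans chr12:109711803-109711863 on the plus strand of GRCm38.p6.
Mir380 hairpin: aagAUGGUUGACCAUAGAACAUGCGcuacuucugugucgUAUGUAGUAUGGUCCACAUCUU

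Mir377 read 10.60, 10.30 and 10.65 in control, 10.93, 10.13 and 10.40 in Net shRNA and 7.82, 7.77 and 7.68 in Sap-1 shRNA arrays, a mean at 14.7% of control (-2.76, SE 0.16). Mir382 read 9.61, 9.61 and 9.86 in control, 10.17, 9.56 and 9.69 in Net shRNA and 7.36, 7.43 and 7.0 in Sap-1 shRNA arrays, at 18.6% of control (-2.43, SE 0.15). Both were well above the middle of all genes in control, where the median level was 7.80, so on the control side they lay far from the floor of the scale. Mir323 (-2.37, SE 0.20), Mir300 (-2.36, SE 0.19), Mir329 (-2.35, SE 0.21), Mir369 (-2.33, SE 0.21) and Mir379 (-2.29, SE 0.21) lay within 0.14 of Mir382, less than their standard errors. Mir154 was at -2.09 (SE 0.16) and Mir134 at -1.68 (SE 0.18), from 10.47 ± 0.17 to 8.79 ± 0.30 (SD, n = 3 arrays each).

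The related pairs moved by unequal amounts. Mir300 fell from 8.33 ± 0.21 to 5.97 ± 0.09 and Mir381, whose 3p form shares all but 3 bases with it, from 6.57 ± 0.15 to 5.62 ± 0.06 (-0.94, SE 0.10). Their hairpins were 73.8% identical. Mir379 and Mir411, which share a 3p seed, differed from control by -2.29 and -1.59 (SE 0.15). Mir376b and Mir376c, the most alike of 741 hairpin pairs at 80.7% identity, differed by -1.97 (SE 0.11) and -1.28 (SE 0.14), with Mir376c at only 4.97 in control. Mir376a, another member of that family, was at -1.25 (SE 0.18). In Sap-1 shRNA cells Mir376c and Mir376a averaged 3.69 and 4.11, where the lowest value on any array was 3.24. Mir411, with the smaller difference, was the brighter of its pair in control (7.43 against 6.91). Below the 10th percentile of all genes lay 9 members in Sap-1 shRNA cells and 2 in control. The part of the floor of the scale in these unequal differences was not tested.

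Mir666, Mir667 and Mir299a stood out in the far group for small differences. The first of these, which lies between Mir679 (-1.83, SE 0.20) and Mir543 (-1.49, SE 0.19), read 9.01, 8.88 and 8.92 in control and 8.86, 8.86 and 8.65 in Sap-1 shRNA arrays. These groups were not called apart (-0.14, SE 0.07) and came within 0.02 of each other, and its Net shRNA arrays, at 9.01, 8.83 and 8.83, covered the same range. Mir667 (-0.56, SE 0.19) and Mir299a (-0.56, SE 0.15) were called lower, but Sap-1 shRNA and control arrays of Mir299a overlapped, at 5.0 to 5.41 against 5.4 to 5.94. Those calls depended on the settings, and so did that of Mir127, while 38 of the 41 members called kept the call under every setting they entered. Other members from Mir379 onward ranged from -1.74 for Mir539 to -0.75 for Mir668.

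Brightness and base composition of the hairpin went together, which bears on how far these differences can be compared between genes. Over the 39 microRNA genes with a hairpin entry, the share of G and C correlated with the level at r = 0.56 in control and 0.80 in Sap-1 shRNA cells (Spearman rho 0.55 and 0.77), and with the difference at 0.45 (rho 0.45). The points share the same arrays and, many of them, the same transcript, so these are descriptions over genes. The 7 hairpins under 40% G and C had a median difference of -1.59, the 18 from 40% to under 50% one of -1.62 and the 14 at 50% or more one of -0.62. The hairpins before Mir379 were richer in G and C, at a median of 56.4% against 42.3% from Mir379 onward, so place and composition overlap. Among the 29 from Mir379 onward alone, the correlation with the difference was 0.17 (rho 0.08). The part of base composition in the difference between the groups of genes was not tested.

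**Figure D3:**
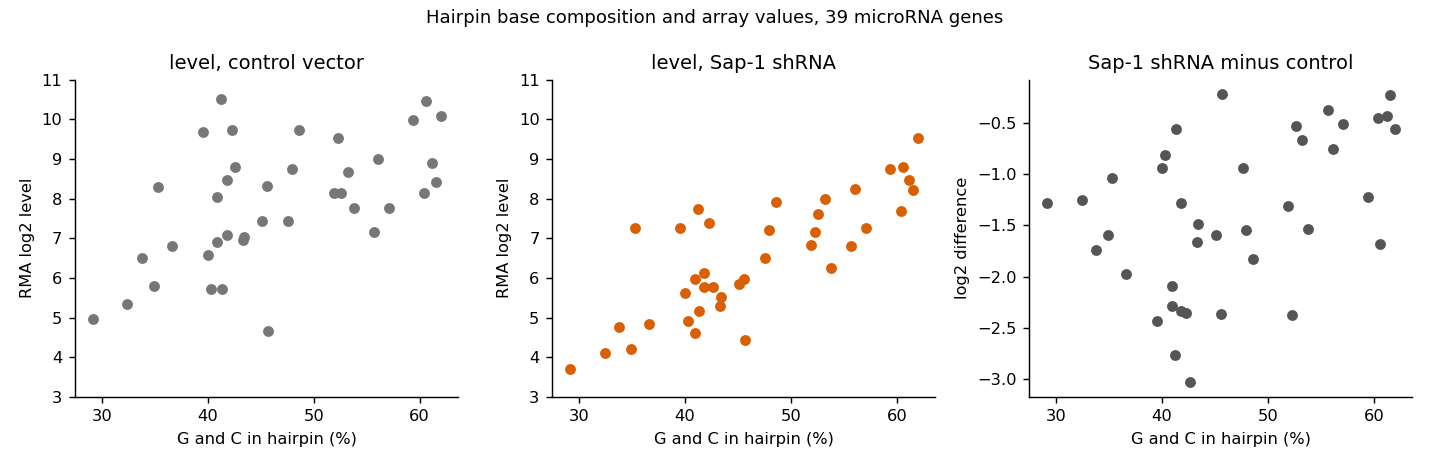
Share of G and C in the hairpin (horizontal axis, percent) of 39 microRNA genes against the mean RMA log2 level in control vector arrays, the mean level in Sap-1 shRNA arrays and the difference between them (vertical axes), 1 point per gene. Levels were higher for hairpins rich in G and C, with r = 0.56 in control and 0.80 in Sap-1 shRNA cells, and the difference correlated at 0.45.

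With the Net hairpin the cluster stayed close to control. Of the 45 members 2 were called, both lower, Mir341 (-0.57, SE 0.12) and Mir379 (-0.68, SE 0.21), where 10.2% of all genes were called lower and 13.4% higher. The groups were apart for 2 members, Mir341 and Rtl1, against 15.8% of all genes lower without overlap. Mir379 read 7.37, 6.72 and 6.66 in control and 6.74, 6.06 and 5.90 in Net shRNA arrays, so its highest Net shRNA array lay within the control range. Mir411, the next gene, was at -0.43 (SE 0.15) without being called, and the other members ranged from -0.32 for Mir665 to 0.28 for Mir539. The median over the members was -0.03.

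A single array decided much of this. Net shRNA replicate 1 was the highest of its group for 37 of the 40 microRNA genes and replicate 2 the lowest for 30. The median deviation of the microRNA genes from the control mean was 0.32 in Net shRNA replicate 1, -0.21 in replicate 2 and -0.17 in replicate 3. Without replicate 1, 12 members were called lower, namely Meg3, Rian, Mir337, Mir540, Mir665, Mir341, Mir379, Mir411, Mir494, Mir679, Mir495 and Mir154, at -0.93 to -0.27, and the median over the members was -0.20. Without Net shRNA replicate 2 or 3, control replicate 1 or Sap-1 shRNA replicate 1 or 2, which share in the estimate of the spread, 1 member was called, and without control replicate 2 there were 5.

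Members varied more between replicates than most genes did. The median SD of a member within a group was 0.15 for control, 0.32 for Net shRNA and 0.12 for Sap-1 shRNA, against 0.05, 0.06 and 0.05 over all genes. The arrays shifted together: control replicate 2 was the lowest of its group for 32 of the 40 microRNA genes and Sap-1 shRNA replicate 3 for 27. The members thus did not vary independently within a group.

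**Figure D4:**
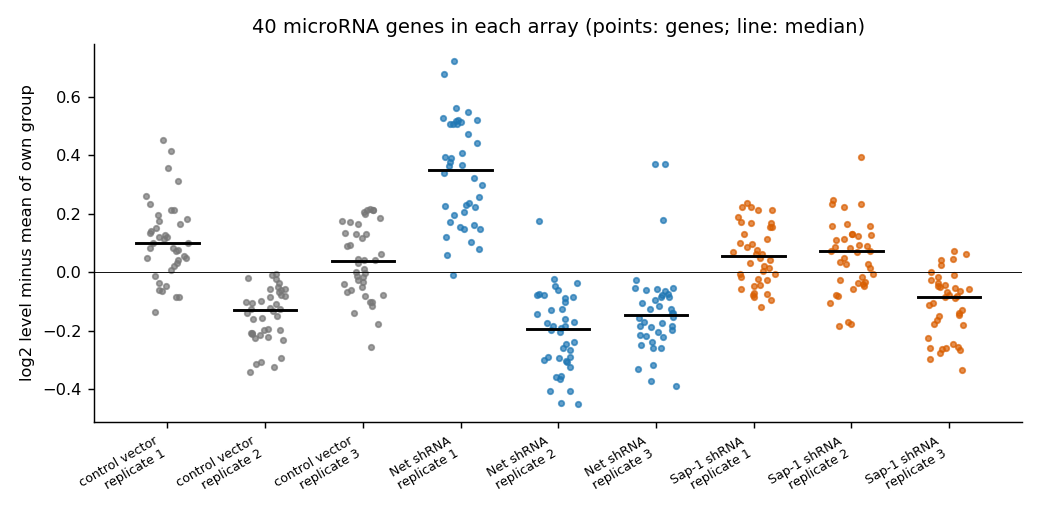
Level of the 40 microRNA genes in each array minus the mean of that array's own group, on the log2 scale (vertical axis), with 1 point per gene and a line at the median. Points of an array moved together, and Net shRNA replicate 1 was the highest of its group for 37 of the 40 genes.

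Set against each other, the knockdowns differed across most of the cluster. Net shRNA exceeded Sap-1 shRNA cells for 39 of the 45 members by the call, where 14.2% of all genes were called higher in that direction, and without overlap for 43, against 19.6% of all genes. The median difference was 1.30, from 0.00 for Dio3 to 2.81 (SE 0.26) for Mir380. This comparison and the other comparisons share their arrays, so it repeats the Sap-1 shRNA values more than it adds to them. After Mir380 came Mir377 (2.73, SE 0.16), Mir382 (2.54, SE 0.15), Mir300 (2.54, SE 0.19) and Mir369 (2.40, SE 0.21), and Meg3 differed by 1.97 (SE 0.12).

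The genes on either side were compared, to see where along the chromosome the values changed. Of the 15 nearest tested genes on each side, 8 of 30 were called higher and 5 lower in Sap-1 shRNA cells, with a median of -0.04 and a range from -0.34 to 0.86. These were 26.7% and 16.7%, against 15.8% and 13.9% of all genes. Begain, the nearest tested neighbour of Dlk1 and itself imprinted in some species, read 8.32, 8.38 and 8.34 in control and 8.01, 8.15 and 7.86 in Sap-1 shRNA arrays (-0.34, SE 0.06, limma adjusted p = 0.0017). On the other border Ppp2r5c, a phosphatase subunit gene and the nearest one tested beyond Dio3, differed by 0.10 (SE 0.05, limma adjusted p = 0.19). The largest flanking differences were rises, of the tryptophanyl-tRNA synthetase gene Wars (0.86, SE 0.05, limma adjusted p = 1.2e-07), of Tnfaip2 (0.55, SE 0.04, limma adjusted p = 2.6e-06) and of Cinp (0.43, SE 0.04, limma adjusted p = 2.1e-05). The heat shock protein gene Hsp90aa1 rose by 0.34 (SE 0.04, limma adjusted p = 7e-05). No flanking gene lay below -0.34, while 41 of the 45 members did, though the flanking genes are longer and their probe sets of another kind. Without any 1 of the control arrays, 3 flanking genes were called lower in place of 5.

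With the Net hairpin 2 flanking genes were called higher, Cinp (0.27, SE 0.04, limma adjusted p = 0.00098) and the cyclin gene Ccnk (0.13, SE 0.04, limma adjusted p = 0.025). The 3 called lower were Tnfaip2 (-0.22, SE 0.04, limma adjusted p = 0.0027), the corepressor gene Rcor1 (-0.20, SE 0.05, limma adjusted p = 0.0093) and Evl (-0.16, SE 0.05, limma adjusted p = 0.028). The shares were 6.67% higher and 10.0% lower, against 13.4% and 10.2% of all genes. Without control replicate 1 or 2 or Net shRNA replicate 3, 1 was called higher, and without Net shRNA replicate 2 or Sap-1 shRNA replicate 3, 5 were called lower.

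**Figure D5:**
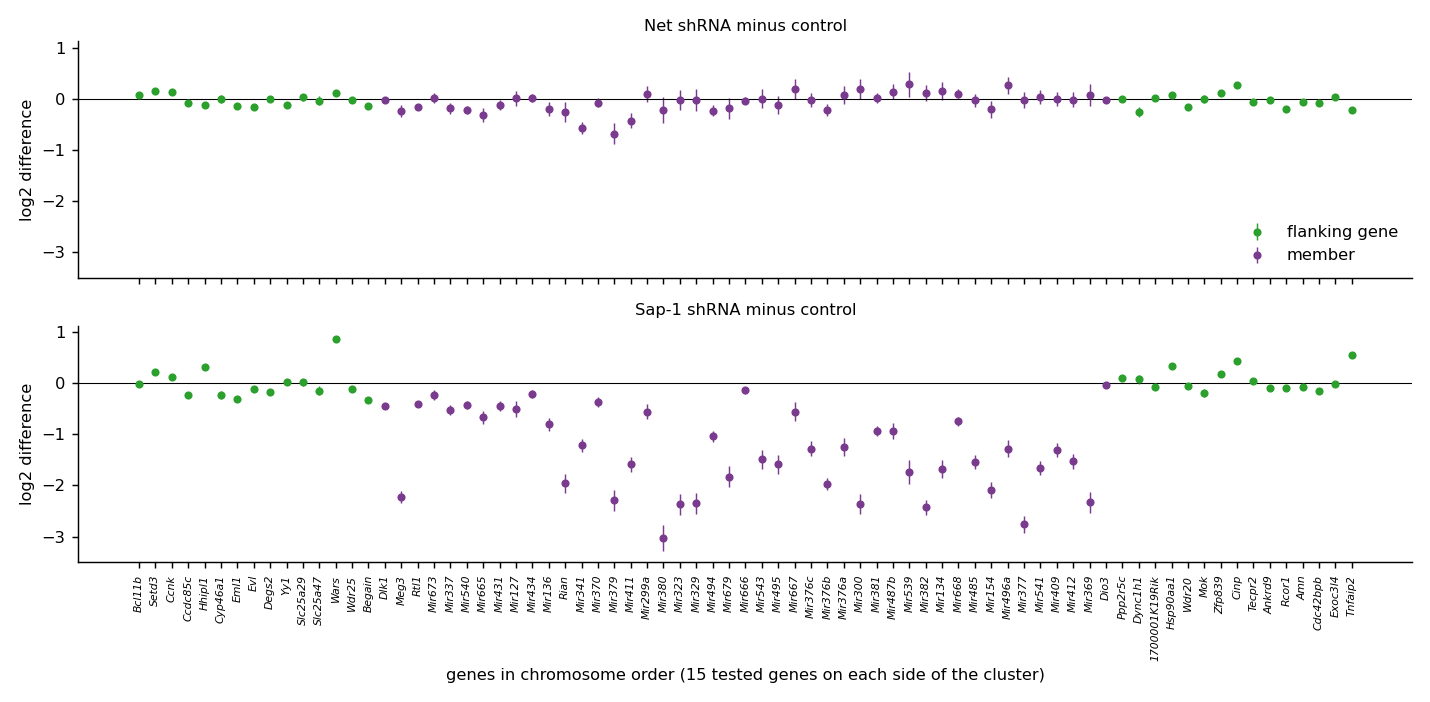
Log2 difference from control (vertical axis, point with SE) of the 45 members and of the 15 nearest tested genes on each side, in chromosome order (horizontal axis), for Net shRNA above and Sap-1 shRNA below. In the lower panel members reach -3.03 while flanking genes lie between -0.34 and 0.86; in the upper one members lie between -0.68 and 0.28.

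MicroRNA genes elsewhere in the genome were also measured, host genes left out. Their probe sets were dimmer, with a median control level of 5.91 against 8.14 for the microRNA members, and RMA can make the differences of dim probe sets too small. Of 256, 46 were called lower and 1 higher in Sap-1 shRNA cells, with a median of -0.07, and the lowest was Mir701 at -1.01 (SE 0.18). The shares were 18.0% lower and 0.391% higher, against 13.9% and 15.8% of all genes. The only gene called higher was Mir568 (0.57, SE 0.11). In the Net shRNA arrays 27 were called lower and 3 higher, with a median of -0.04. These were 10.5% and 1.17%, against 10.2% and 13.4% of all genes. The count of 46 lower was 19 without control replicate 1, 29 without Sap-1 shRNA replicate 1, 30 without replicate 2 and 23 without replicate 3, and the count of 27 was 16 without control replicate 1 and 17 without Net shRNA replicate 2 or 3. The counts of genes called higher were 2 without control replicate 1 or 3 or Sap-1 shRNA replicate 3 in Sap-1 shRNA cells. For Net shRNA they were 1 without Net shRNA replicate 1 or Sap-1 shRNA replicate 1, and 0 without control replicate 2.

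Other imprinted genes were in part lower as well. Of 30 measured of 35 listed, 8 were called lower and 1 higher in Sap-1 shRNA cells, with a median of -0.09. These were 26.7% and 3.33%, against 13.9% and 15.8% of all genes. Lower by at least 1 were 4 of the 30, against 0.803% of all genes. The list was chosen with earlier results of these data known, so these shares and the p-values of its genes are descriptions. Among those lower were the fetal growth factor gene Igf2 (-3.40, SE 0.27, limma adjusted p = 3.7e-06), Mest (-3.19, SE 0.15, limma adjusted p = 6.1e-08), Asb4 (-1.98, SE 0.06, limma adjusted p = 1.4e-09), the matrix gene Dcn (-0.66, SE 0.04, limma adjusted p = 4e-07) and the zinc finger gene Peg3 (-1.11, SE 0.08, limma adjusted p = 1.1e-06). With the Net hairpin Mest (-3.08, SE 0.15) and Asb4 (-1.38, SE 0.06) were called lower too, as were Plagl1 (-0.57, SE 0.06) and Grb10 (-0.50, SE 0.05), whereas Peg3 was called higher (0.70, SE 0.08, limma adjusted p = 6.8e-05) and Igf2 was not called (0.72, SE 0.27, limma adjusted p = 0.086). Net shRNA counts were 7 lower (23.3%, against 10.2% of all genes) and 4 higher (13.3%, against 13.4%). The latter count was 2 without control replicate 1 or 2 or Net shRNA replicate 2 or 3.

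Genes that set and keep imprints went both ways. Of 20 genes of DNA methylation, imprint protection and Polycomb repression, 5 were called higher and 3 lower in Sap-1 shRNA cells, with a median of 0.02. The imprint protector Zfp57 fell by 0.35 (SE 0.05, limma adjusted p = 0.00014), and Aff3, which binds the control region of this cluster in stem cells, fell by 0.36 (SE 0.05, limma adjusted p = 0.00032). The Polycomb genes Rnf2 and Eed differed by -0.36 (SE 0.05, limma adjusted p = 0.0001) and 0.49 (SE 0.07, limma adjusted p = 0.00019). With the Net hairpin Aff3 fell by 1.11 (SE 0.05, limma adjusted p = 1e-07) and Eed was higher by 0.60 (SE 0.07, limma adjusted p = 8.1e-05), with 3 genes called each way, among them Ctcf (0.17, SE 0.04) and Zfp57 (-0.18, SE 0.05). The 5 higher in Sap-1 shRNA cells were 2 without any 1 control array or Sap-1 shRNA replicate 3, and 3 without Sap-1 shRNA replicate 1 or 2 or Net shRNA replicate 3. In Net shRNA cells 5 were higher without Net shRNA replicate 1 and 1 lower without replicate 2.

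The microRNA processing genes were mixed as well. Of 16, 5 were called higher and 2 lower in Sap-1 shRNA cells, with a median of 0.01. These were 31.2% and 12.5%, against 15.8% and 13.9% of all genes. Drosha, which cuts the hairpin out of the primary transcript, was higher by 0.29 (SE 0.06, limma adjusted p = 0.0043), and the export receptor gene Xpo5 by 0.22 (SE 0.04, limma adjusted p = 0.0018). The binding partner gene Prkra (-0.29, SE 0.06) was called lower and the effector gene Ago3 (0.23, SE 0.05) higher. Dicer1, which cuts the hairpin to the mature form, was higher by 0.15 (SE 0.05, limma adjusted p = 0.033). In Net shRNA cells 4 were called lower, Ago2 (-0.29, SE 0.06, limma adjusted p = 0.003), Ddx17 (-0.18, SE 0.04), Tut7 (-0.24, SE 0.05) and Ago4 (-0.32, SE 0.08), and 1 higher. The count of 5 was 3 without control replicate 2 or any 1 Sap-1 shRNA array, and the count of 2 was 1 without control replicate 1 or 3 or Sap-1 shRNA replicate 1 or 2. The 1 higher in Net shRNA cells was not called without control replicate 1 or 2 or Net shRNA replicate 2 or 3.

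The pathways around the protein members were mixed. Of 20 Notch pathway genes, to which Dlk1 is related, 4 were called higher and 5 lower in Sap-1 shRNA cells. The ligand gene Jag1 fell by 0.76 (SE 0.07, limma adjusted p = 1e-05) and the target gene Hes1 was higher by 0.52 (SE 0.05, limma adjusted p = 2.3e-05), with the fringe gene Rfng (0.44, SE 0.05) higher and the receptor gene Notch2 (-0.39, SE 0.06) lower. In Net shRNA cells Jag1 was higher by 0.74 (SE 0.07, limma adjusted p = 2.7e-05) and the receptor gene Notch1 by 1.27 (SE 0.09, limma adjusted p = 1.9e-06), with 4 called higher and 2 lower in all. Those lower were Rbpj (-0.50, SE 0.05), the DNA-binding partner of Notch, and Lfng (-0.70, SE 0.09). The Net shRNA shares were 20.0% higher and 10.0% lower, against 13.4% and 10.2% of all genes. Of 11 measured thyroid hormone genes, on whose ligand Dio3 acts, 4 were called lower and 1 higher in Sap-1 shRNA cells. These were 36.4% and 9.09%, against 13.9% and 15.8% of all genes. The receptor gene Thrb was higher by 0.59 (SE 0.06, limma adjusted p = 2.4e-05) and the target gene Klf9 fell by 0.48 (SE 0.06, limma adjusted p = 7.1e-05), with the receptor partner genes Rxra (-0.51, SE 0.06) and Rxrb (-0.19, SE 0.05) lower. Thrb fell by 0.54 (SE 0.06, limma adjusted p = 8.5e-05) in Net shRNA cells, where the other 3 called lower were Slc16a10 (-0.69, SE 0.05), Klf9 (-0.62, SE 0.06) and Rxra (-0.21, SE 0.06). The share of thyroid hormone genes called lower in Net shRNA cells was 36.4%, against 10.2% of all genes. In Sap-1 shRNA cells, of the 5 Notch pathway genes lower, 3 were called without control replicate 1 or 2 or Sap-1 shRNA replicate 2, and of the 4 thyroid hormone genes lower, 2 without control replicate 2.

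Promoters are shown for Meg3, the named gene with the largest difference. Whether Rian and the microRNA genes share the starts of Meg3 was not tested. RefSeq gives it 2 start sites, and each window holds 250 bases before the start and 50 after it, on the plus strand of GRCm38.p6, at chr12:109540746-109541045 and chr12:109545148-109545447. Searched on both strands were an ETS motif (CCGGAAGT), its short core (CCGGAA, part of the former and added after the sequence was seen), the CRE that CREB proteins bind (TGACGTCA), the TATA box (TATAAA) and the CArG box of serum response factor, by name. In capitals are the matches, from the 5′ end TTCCGG (the short core on the reverse strand), the CRE and the joined TATA boxes in the first window, and the CArG box in the second.
Meg3 start 1: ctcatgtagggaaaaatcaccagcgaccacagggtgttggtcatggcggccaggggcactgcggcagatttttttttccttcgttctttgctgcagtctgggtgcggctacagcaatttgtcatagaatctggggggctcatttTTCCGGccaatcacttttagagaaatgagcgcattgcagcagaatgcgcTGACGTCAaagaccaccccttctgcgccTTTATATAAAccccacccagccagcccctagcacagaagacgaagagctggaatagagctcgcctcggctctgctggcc
Meg3 start 2: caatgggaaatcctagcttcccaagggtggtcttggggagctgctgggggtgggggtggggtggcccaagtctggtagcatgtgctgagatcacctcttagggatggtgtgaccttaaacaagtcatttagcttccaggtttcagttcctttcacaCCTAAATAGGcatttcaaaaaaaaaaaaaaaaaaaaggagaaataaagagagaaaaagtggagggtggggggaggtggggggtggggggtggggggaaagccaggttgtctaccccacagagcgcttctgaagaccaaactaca

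At the first start the CRE lay 57 bases before the start, the short ETS core 106 bases before it and the TATA boxes, which overlap on opposite strands, 25 and 29 bases before it. At the second start the CArG box lay 94 bases before the start. The longer ETS motif was in neither Meg3 window, nor in that of Dlk1 or Dio3. Of 32851 promoter windows of the same length, 3.89% held the ETS motif, 14.9% its short core, 1.79% the CRE, 1.63% a CArG box and 13.6% a TATA box. The Dlk1 window held none of the motifs and the Dio3 window 1 TATA box, 31 bases before the start. A match in letters is a description of the window and says nothing about whether a factor is bound there.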

How the data were processed

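The authors deposited 1 log2 level per probe set and array for the 9 Affymetrix Mouse Gene 1.0 ST arrays, made per the submitters' processing notes by RMA (Affymetrix Expression Console, version not given). RMA corrects background, equalises the distributions of the arrays and combines the probes of a set, so dim probe sets show differences too small and a shift common to most genes is lost. Values ran from 3.24 to 14.47. Arrays have no read depth, and their number limits the precision.

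Of 28815 probe sets, 21780 carried 1 gene symbol, 1605 several and 5430 none in the platform annotation, and only the first kind was used. Symbols were updated by Entrez ID through the RefSeq table of GRCm38.p6, which held 21689 of them. The build of the array design was not given in the sources used here, so that table served for names and gene order only. For 998 genes with several probe sets the one with the highest mean was used, leaving 19935 genes; each cluster member had 1.

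Differences were estimated with limma 3.58.1 in R 4.3.3 (lmFit, eBayes) in 1 fit over all 9 arrays, with 6 residual and 4.72 prior degrees of freedom and Benjamini-Hochberg adjustment over all genes of each comparison. Calls were made at an adjusted p under 0.05, and the error of a difference is the standard error of the fit. P-values set each difference against the spread between arrays within groups, estimated jointly over the 3 groups. That spread may be the one within a single line per group. Members and gene lists were chosen with earlier results of these data known. MicroRNA genes could be named where groups did not overlap and differed by at least 0.5 in a comparison (Mir127, at 0.52, just inside and Mir431, at 0.45, just outside). This held for 34, of which some were given only within a range. Others were named where a value singled them out. Of flanking genes and pathway lists, the up to 4 called genes with the smallest adjusted p in each comparison with control were named. Begain, Ppp2r5c, Igf2, Peg3 in Net shRNA cells, Dicer1 and the markers of other cell types were added after their values were seen.

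On simulated data for the Sap-1 shRNA comparison over 19935 genes, calls recovered 4% of genes given a 1.1-fold change, 44% given 1.2-fold, 96% given 1.5-fold and all of those given 2-fold; 5 unchanged genes were called. The changed genes were drawn from all genes, with noise independent between genes. Members had a larger median SD, 0.15 against 0.05 in control, and moved together by array. These shares therefore do not apply to the members. Other settings were a replicate block, robust variances with an intensity trend, a fit to only the 6 arrays compared, 3 other normalizations, a filter on dim genes, other uses of a gene's probe sets, each array left out and an adjusted p under 0.01.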

Additional observations from a re-analysis of the deposited data

Results flagged for a closer look

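The members, the flanking genes, the small nucleolar RNA genes of the region and the genes of the lists were searched for opposite differences. Of these, 13 lay on opposite sides of control in every array of both knockdowns. The same count was not made over all genes. Tnfaip2, a flanking gene, read 9.82, 9.88 and 9.88 in control, 9.58, 9.67 and 9.66 in Net shRNA arrays (-0.22) and 10.42, 10.37 and 10.43 in Sap-1 shRNA arrays (0.55). The knockdowns differed there by -0.77 (Net minus Sap-1, SE 0.04). DQ267102, a small nucleolar RNA gene within the cluster, differed from control by 0.48 in Net shRNA and by -1.55 with the Sap-1 hairpin, with arrays at 12.37, 12.16 and 12.14 and at 10.14, 10.45 and 10.01 against 11.66, 11.72 and 11.86 in control. The knockdowns differed there by 2.02 (SE 0.10), given without a p because the region was chosen on these comparisons.

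Of the lists, the imprinted genes Igf2 (0.72 with the Net and -3.40 with the Sap-1 hairpin), Igf2r (0.22 and -0.57) and Peg3 (0.70 and -1.11) lay on opposite sides. So did the Notch pathway genes Jag1 (0.74 and -0.76) and Rbpj (-0.50 and 0.29), the thyroid hormone receptor genes Thra (0.11 and -0.14) and Thrb (-0.54 and 0.59) and the microRNA effector gene Ago2 (-0.29 and 0.16). Among cell type markers these were Tek (1.84 and -0.30), Cd68 (0.23 and -0.23) and Acta1 (-0.13 and 0.42). All 11 list genes were called between the knockdowns. That adds nothing, since genes picked for lying on opposite sides of control have their knockdown groups apart by selection, so no p-values are given.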

How the results depend on the processing

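No called difference of a member changed sign under any setting run. The number of members called lower in Net shRNA cells, 2 of 45, was 6 with a replicate block, 5 with arrays centred on their median, 5 with cyclic loess, 4 with quantile normalization, 1 at an adjusted p under 0.01 and 1 to 12 with each array left out. Mir341 alone was called in every setting. In Sap-1 shRNA cells the count of 41 was 38 to 42 with each array left out and 17 of the 19 members left by the filter on dim genes; between the knockdowns 39 became 34 to 41 and 17. As a check of that block, same-numbered arrays of different groups correlated at -0.11 to 0.36 in their deviations from the group means. Not every array correlated best with its own number. The replicate 1 arrays did so in each group, at 0.166 to 0.36. Whether same-numbered arrays share more than a number cannot be told from these values. Flanking genes higher in Net shRNA cells, 2, were 1 centred, 4 without dim genes, 1 at an adjusted p under 0.01 and 1 to 3 with an array left out; those lower, 3, were 6 with the intensity trend, 6 centred, 7 with cyclic loess, 8 with quantile normalization, 8 without dim genes and 2 to 5 with an array left out. In Sap-1 shRNA cells the 8 higher were 5 and the 5 lower 2 at an adjusted p under 0.01, and 6 to 8 and 3 to 6 with an array left out. Flanking genes higher in Net shRNA than in Sap-1 shRNA cells, 3, were 0 with only the 6 arrays compared, 0 centred, 1 with quantile normalization, 0 at an adjusted p under 0.01 and 0 to 3 with an array left out; those lower, 6, were 4 to 6. The cause was not tested, except that the filter on dim genes tests fewer genes. Of 3192 other values 99 moved by more than the spread between replicates or by over 1.5 times in a count. The table holds no detection calls, so how far signal over background limits the dimmest members, such as Mir434 at 4.65 in control, is unknown.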
